A study of Homo sapiens with 3 samples.

Results

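The genes described here make and load the peptides that MHC class I molecules show at the cell surface. They were taken as 9 protein accessions, namely B2M (P61769), HLA-E (P13747), TAP1 (Q03518), TAP2 (Q03519), TAPBP (O15533), CALR (P27797), PDIA3 (P30101), PSMB8 (P28062) and PSMB9 (P28065). Of these 9, 7 have a row among the 213543 features of the count table, and CALR and PDIA3 are not analysed here at the level of their accessions. The RNA came from THP-1, an MLL-AF9 positive line of human acute monocytic leukemia. Cells were untreated (0 h) or treated with 0.2 µM GSK-LSD1, an inhibitor of the histone demethylase LSD1 that is used to induce monocytic differentiation, for 8 h or 24 h. Each time point is 1 library of total RNA depleted of ribosomal RNA, so every difference below compares libraries and has no replicate check. There is no untreated library at 8 h or 24 h, so the inhibitor and time in culture cannot be told apart.

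In class I presentation, proteasomes cut proteins into peptides, and in immune cells the inducible subunits PSMB8 and PSMB9 can replace standard catalytic subunits. The transporter formed by TAP1 and TAP2 carries peptides into the endoplasmic reticulum. There tapasin (TAPBP), calreticulin (CALR) and the oxidoreductase PDIA3 hold the empty heavy chain beside the transporter until a peptide binds, and the complete molecule of heavy chain, B2M and peptide moves to the cell surface. HLA-E is a heavy chain that mostly presents peptides from the leader sequences of other class I chains and is read by receptors of natural killer cells. Many of these genes are known to respond to interferon.

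Among the members' features, only those of tapasin and HLA-E had enough counts to resolve a modest difference. A feature need not hold all reads of its gene, because how shared reads were counted is not given. TAPBP was 1.36-fold above its untreated level at 24 h, and HLA-E was 1.23-fold above at 8 h and 1.22-fold above at 24 h. B2M and TAP1 had 8 to 14 counts in each library, PSMB9 had 2 to 4, and TAP2 and PSMB8 were listed at 0 throughout.

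TAP2, PSMB8, TAP1 and PSMB9 are neighbours in the genome, while the other members lie apart. In GENCODE v44, an annotation of GRCh38, HLA-E lies on chromosome 6 from 30489509 to 30494194 on the forward strand. A cluster on the same chromosome holds TAP2 (32821833 to 32838739, reverse), PSMB8 (32840717 to 32844679, reverse), TAP1 (32845209 to 32853816, reverse) and PSMB9 (32844136 to 32859851, forward). TAPBP lies from 33299694 to 33314284 on the reverse strand of chromosome 6. B2M (44711358 to 44718851) and PDIA3 (43746394 to 43773279) lie on the forward strand of chromosome 15, and CALR on that of chromosome 19 from 12938578 to 12944489. The genes of the cluster overlap each other or other annotated genes, and whether reads were counted by strand is not given in the sources used here. Exons of other genes cover 14.2% of the exon bases of TAP1, 19.5% of TAP2, 17.3% of PSMB8, 5.21% of PSMB9 and 21% of TAPBP, against 0% for B2M and HLA-E.

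The promoters were searched for a motif, which some of the members share. RefSeq promoter windows of GRCh38.p14, which run from 250 bases before to 50 bases after a gene's start, were matched by symbol for 7 members, with HLA-E and PDIA3 unmatched. The motif GAAANNGAAA, the core of the interferon-stimulated response element, was searched on both strands and allowed to overlap itself. It was found in a window of 5 members (TAP1, TAP2, TAPBP, PSMB8 and B2M), though not in the other windows of TAP1 and PSMB8. The windows of PSMB9 and CALR lack it. By window, it was in 5 of 9 windows of the members, beside 3.57% of all 35116 windows. The 30-base stretches below, one per gene, are shown because tapasin is the best counted member and its motif can be set beside those of the others. Where a window has more than 1 match, the one farthest before the start is given. The stretches run 5′ to 3′ on the strand of the gene, with the motif, or its reverse complement, in capitals.
TAPBP: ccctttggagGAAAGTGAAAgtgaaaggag
TAP2: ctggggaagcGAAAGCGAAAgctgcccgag
TAP1: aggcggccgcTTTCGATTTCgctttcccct
PSMB8: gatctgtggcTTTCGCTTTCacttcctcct
B2M: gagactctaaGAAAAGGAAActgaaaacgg
The stretches lie at chr6:33314079-33314108 for TAPBP, chr6:32838778-32838807 for TAP2, chr6:32853819-32853848 for TAP1, chr6:32844032-32844061 for PSMB8 and chr15:44711363-44711392 for B2M. Those of TAPBP, PSMB8 and B2M overlap an exon of the same gene in GENCODE, that of TAP1 lies within PSMB9 outside its exons, and that of TAP2 overlaps an exon of ENSG00000250264 on the same strand. The motif begins 20 bases before the RefSeq start of TAPBP, 58 before that of TAP2, 134 before that of one of the TAP1 starts, 4 before that of one of the PSMB8 starts and 144 before that of B2M. TAP1 and PSMB9 are transcribed in opposite directions, and the PSMB9 window shares 13 bases with one of the TAP1 windows and 0 with the other. A match is a description of the letters, and binding was not measured.

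The counts summed to between 1310912 and 1475938 per library. They were scaled by edgeR's TMM method, and levels are given as CPM, counts scaled by the TMM library size, with raw counts listed in order of time. In bulk RNA a change in RNA per cell and a change in the share of cells that make it cannot be told apart. A listed 0 allows up to 3 counts by the usual one-sided limit, or 1.95, 2.34 and 2.11 CPM in the 0 h, 8 h and 24 h libraries, and the two-sided Poisson bound of a 0 is 2.40, 2.88 and 2.60 CPM. Intervals are exact 95% intervals (Poisson for levels, Clopper-Pearson for ratios and shares) and speak to counting error alone, because without molecular identifiers reads may be copies of the same molecule. Of the 6 monocyte markers checked, LYZ, ITGAM and SPI1 had 655, 87 and 69 counts at 0 h, CD14 and CD68 had 0 there and at most 6 later, and CD33 was listed at 0 in every library. LYZ, ITGAM and SPI1 were 2.93-fold, 4.21-fold and 1.60-fold higher at 24 h than before treatment, and whether the members' differences go with this was not tested. All 8 markers of T cells, B cells, erythroid and epithelial cells were listed at 0. Of the 73321 features named by a protein, 53799 were also at 0 in every library, so these zeros say little about cell type.

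**Figure D1:**
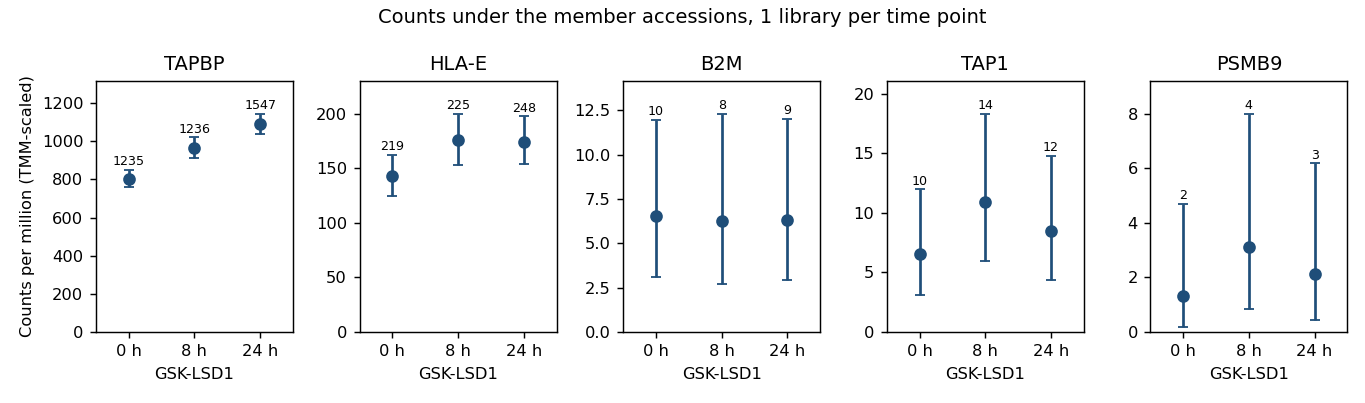
Level of each member with a count, in CPM after TMM scaling (vertical axes, each from 0 with its own range), by hours of GSK-LSD1, each point being 1 library, with exact 95% Poisson intervals as bars and the raw count above each bar. TAPBP goes from 804 to 1089 CPM with intervals that do not overlap, while the intervals of B2M, TAP1 and PSMB9 overlap at all time points.

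TAPBP, the tapasin gene, held 1235 counts before treatment, 1236 at 8 h and 1547 at 24 h. Scaled to library size these are 804 CPM (interval 760 to 850), 965 CPM (912 to 1021) and 1089 CPM (1036 to 1145). The level was thus lowest in the untreated library and highest at 24 h, and the 3 intervals do not overlap. The ratio was 1.20 at 8 h against 0 h (1.11 to 1.30), 1.36 at 24 h against 0 h (1.26 to 1.46) and 1.13 at 24 h against 8 h (1.05 to 1.22). The raw counts of 0 h and 8 h differ by 1 read, so the difference at 8 h rests on the scaling. Its log2 ratio was 0.26 (0.15 to 0.38) with TMM and 0.17 (0.06 to 0.29) with total counts.

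HLA-E held 219 counts before treatment, 225 at 8 h and 248 at 24 h. These correspond to 143 CPM (124 to 163), 176 CPM (154 to 200) and 175 CPM (154 to 198). The treated libraries lay above the untreated one and close to each other, and the intervals of all 3 levels overlap. The ratio was 1.23 at 8 h against 0 h (1.02 to 1.49), 1.22 at 24 h against 0 h (1.02 to 1.48) and 0.994 at 24 h against 8 h (0.826 to 1.20). With library sizes taken as total counts, the intervals against 0 h include no change, with log2 ratios of 0.21 (-0.06 to 0.49) at 8 h and 0.21 (-0.06 to 0.48) at 24 h. HLA-E belongs to a family of similar genes, and how reads that match several of them were counted is not given in the sources used here.

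B2M encodes the light chain that every class I molecule needs. Its accession held 10, 8 and 9 counts in order of time, or 6.51 CPM (3.12 to 12.0), 6.25 CPM (2.70 to 12.3) and 6.34 CPM (2.90 to 12.0). The levels lay close together, and the ratio at 24 h against 0 h was 0.974 with an interval from 0.350 to 2.67. Any difference between these bounds would lie within the counting error. GENCODE lists 12 transcripts of B2M, 2 of them protein-coding, and 5 have a feature of their own, none of them protein-coding. Since the files do not say which transcripts an accession stands for, nor how shared reads were counted, the row need not hold all B2M reads, and its part in the low count was not tested.

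The transporter was measured through TAP1 alone. TAP1 held 10 counts before treatment, 14 at 8 h and 12 at 24 h, or 6.51 CPM (3.12 to 12.0), 10.9 CPM (5.98 to 18.3) and 8.45 CPM (4.37 to 14.8). The 8 h library was highest, but all intervals overlap, and the ratio at 8 h against 0 h was 1.68 with an interval from 0.694 to 4.23. TAP2 was listed at 0 in all libraries. All 10, 14 and 12 counts of the pair thus stood under TAP1, which says nothing of how the genes compare in level.

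The immunoproteasome members were at the limit of detection. PSMB9 held 2 counts before treatment, 4 at 8 h and 3 at 24 h, and a difference was not detectable at this depth. PSMB8 was listed at 0 in all libraries. These values do not show that the subunits are missing, because subunits of the standard proteasome core, which every cell needs, were also listed at 0. Of 14 such standard subunits 13 had a row, 5 of these were at 0 in every library (PSMB3, PSMB4, PSMB7, PSMA2 and PSMA3) and 4 reached 10 counts in a library.

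Features named by Ensembl transcript identifiers gave a further view of the same genes. None of the coding transcripts of the 9 genes has a feature under its own identifier, and the counts stand almost all under retained-intron transcripts. TAPBP had 12, 3 and 4 counts over such transcripts, most of them under ENST00000480730, with 10, 2 and 3. The ratio of the TAPBP transcripts was 0.361 at 24 h against 0 h (0.0848 to 1.19), which points the opposite way to the accession but includes no change. CALR had 18, 12 and 9 counts, of which ENST00000586803 held 10, 2 and 5, and the ratio of the sum was 0.541 at 24 h against 0 h (0.214 to 1.27). B2M had 4, 6 and 5 such counts, PSMB8 had 5, 3 and 8, PSMB9 had 5, 1 and 6, and TAP1 had 3 in each library. TAP2 had 1 count at 0 h and HLA-E 1 at 24 h, and PDIA3 had 0. Reads were thus counted under PSMB8 transcripts although its accession was at 0.

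A feature was counted as higher or lower where its ratio was past 1.5-fold and its counting interval excluded no change. Only 4 of the 9 members reached 10 counts in a library, the minimum for this count, and 0 of the 4 was higher or lower in any comparison. Of all 9609 features with that minimum, 5.99% were higher and 6.29% were lower at 8 h than at 0 h. The comparison of 24 h with 0 h gave 8.47% and 7.07%, and that of 24 h with 8 h gave 2.73% and 1.68%. By the counting interval alone, with no fold required, HLA-E and TAPBP were higher at 8 h and at 24 h against 0 h, and TAPBP was higher at 24 h against 8 h. The share of all features by the interval alone was not taken, so whether this is unusual is not known. The median log2 ratio of the 4 members was 0.28 at 8 h, 0.33 at 24 h and 0.01 from 8 h to 24 h, beside medians of all features of -0.01, -0.01 and 0.00. These medians include B2M and TAP1, whose single ratios are not resolved. The comparisons at 8 h and 24 h share the untreated library.

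**Figure D2:**
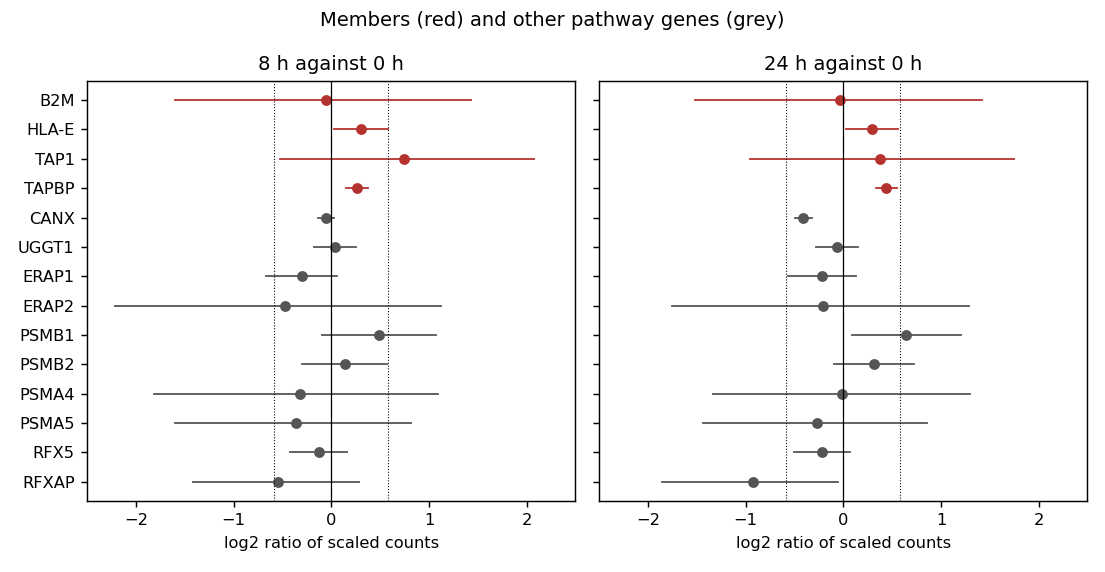
Log2 ratio of scaled counts (horizontal axes) at 8 h and at 24 h against 0 h for the 4 members (red) and the 10 other pathway genes (grey) with at least 10 counts in a library. Points are ratios of 2 libraries, bars are exact 95% counting intervals and dotted lines mark 1.5-fold, and at 24 h TAPBP (0.44) and CANX (-0.41) have narrow intervals on opposite sides of 0.

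Among well counted features, those reaching 200 counts in some library, TAPBP lay in the upper part of the range in each comparison, as HLA-E did against 0 h. This limit was chosen after the values were seen and left 1679 features. Their median log2 ratio was 0.07 at 8 h and 0.01 at 24 h against 0 h, and -0.05 from 8 h to 24 h. At 24 h against 0 h, 12.4% of them had a ratio at or above that of TAPBP and 20.4% at or above that of HLA-E. At 8 h against 0 h the shares were 24.4% for TAPBP and 20.5% for HLA-E. From 8 h to 24 h they were 13.2% for TAPBP and 40.6% for HLA-E, which was then near the middle.

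**Figure D3:**
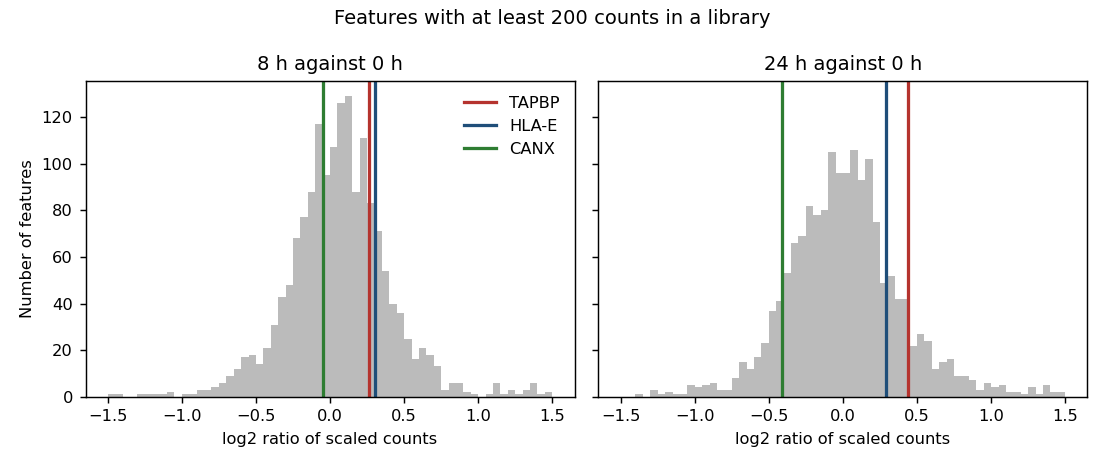
Number of features (vertical axis) by log2 ratio of scaled counts (horizontal axes) at 8 h and at 24 h against 0 h, for the 1679 features that reached 200 counts in some library, of which 15 and 27 lie outside the axis range. Coloured lines mark TAPBP, HLA-E and CANX, and at 24 h TAPBP lies at 0.44 while 12.4% of the features have a ratio as high or higher.

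The wider pathway was read from a list of 43 other genes, of which 34 have a row, 18 had any count and 10 reached 10 counts in a library. At 8 h against 0 h, 0 of the 10 was higher or lower, and the same held at 24 h against 8 h. At 24 h against 0 h, 1 of the 10 was higher and 1 lower, which is near the shares of all 9609 features, 8.47% and 7.07%. PSMB1, a structural subunit of the proteasome core, had 48, 56 and 69 counts and was 1.56-fold higher at 24 h (1.06 to 2.30). RFXAP, a subunit of the RFX complex that binds MHC promoters, had 35, 20 and 17 counts and a ratio of 0.525 (0.276 to 0.963). The median log2 ratio of the 10 genes was -0.22 at 8 h and -0.21 at 24 h against 0 h.

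Calnexin (CANX), the membrane-bound chaperone that folds class I heavy chains before they meet calreticulin and tapasin, was the best counted gene of the list. It held 2679 counts before treatment, 2156 at 8 h and 1862 at 24 h, or 1744, 1684 and 1311 CPM. Its level at 8 h was close to that at 0 h, with a ratio of 0.966 (0.912 to 1.02), and it was lower at 24 h, with a ratio of 0.752 (0.708 to 0.798), within the 1.5-fold limit. A share of counts within a library needs no scaling between libraries, and after the values were seen TAPBP was set against CANX in this way. TAPBP held 31.6% of the counts of both before treatment (30.1% to 33.0%), 36.4% after 8 h (34.8% to 38.1%) and 45.4% after 24 h (43.7% to 47.1%). The intervals of the 3 shares do not overlap, so the balance of the pair differed between all libraries by more than counting error, if reads are not copies. The shares restate the counts behind the ratios above, with TAPBP higher and CANX lower at 24 h, and are no separate result. HLA-E was set against TAPBP in the same way, also after the values were seen, and held 15.1% of the counts of HLA-E and TAPBP before treatment (13.3% to 17.0%), 15.4% after 8 h (13.6% to 17.4%) and 13.8% after 24 h (12.3% to 15.5%), with overlapping intervals.

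The remaining named genes gave no resolved difference. ERAP1, which trims peptides in the endoplasmic reticulum, had 157, 106 and 125 counts and a ratio of 0.861 at 24 h against 0 h (0.675 to 1.10). NLRC5, the transactivator of class I genes, had 7, 7 and 8 counts under its accession and 33, 24 and 27 under transcript identifiers. IRF1, an interferon-responsive regulator, had 9, 10 and 16 counts under transcript identifiers, with a ratio of 1.92 at 24 h against 0 h (0.800 to 4.94). PSMB10, PSME1, PSME2 and PSMB7 were listed at 0, and PSMB5 had 1, 2 and 1 counts. PSMB6 is not analysed here at the level of its accession.

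Of the 6 listed genes with at least 50 counts in a library, the 3 whose ratios at 8 h and 24 h lay nearest to the members' median were PSMB2, PSMB1 and UGGT1. The distances, taken over the 2 log2 ratios against 0 h, were 0.149, 0.364 and 0.468. PSMB2, a structural subunit of the proteasome core, had 95, 87 and 109 counts and a ratio of 1.24 at 24 h against 0 h (0.934 to 1.65). UGGT1, which tests the folding of glycoproteins, had 392, 335 and 347 counts and a ratio of 0.958 (0.826 to 1.11).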

How the data were processed

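Per the labels, reads were processed with fastp and STAR on hg38, and the methods name the Seq2science pipeline. The deposited values are raw counts per feature, 1 column per time point. How reads were counted, on which annotation and with what treatment of shared reads, is not given in the sources used here. Members, lists and the call rule were chosen with earlier results of these data known. The files do not pair accessions with gene names. The names of the members came with the choice of members, those of other genes rest on general knowledge of UniProt, and 128039 of 140222 transcript features were named through GENCODE v44.

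TMM factors (edgeR 4.0.16, over features that reached 10 counts) were 1.04, 0.977 and 0.984 at 0 h, 8 h and 24 h. Size factors of DESeq2 1.42.0 (R 4.3.3) were an alternative. Ratios used no prior count. Single libraries allow no p-value between time points. Counts for 24 h against 0 h were simulated with Poisson error alone, without other variation between libraries. Of 200 features changed 4-fold, 185 were recovered, and 198 of 9409 unchanged ones were called. Smaller changes, such as those of the members, were not simulated. Named genes were the members, listed genes called in any comparison, a set of direct partners (some not reported here) and the nearest 3 genes. Steps ran in Python 3.11.15 with scipy 1.17.1.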

Additional observations from a re-analysis of the deposited data

How the results depend on the processing

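The number of members counted as higher or lower was 0 of 4 in each comparison with DESeq2 size factors, total counts, a 2-fold limit or a prior count of 2. With the counting interval alone it was 2 for 8 h over 0 h, 2 for 24 h over 0 h and 1 for 24 h over 8 h, all higher, and with 1.5-fold alone it was 1 at 8 h against 0 h (TAP1). Both follow from dropping part of the rule, and the share of all features under either looser rule was not taken. Of 36 alternative log2 ratios of members, 34 kept their direction or their overlap with no change, and 2, those of HLA-E with total counts, came to include no change. Total counts moved the median of all features at 8 h against 0 h from -0.01 to -0.10. Adding transcript features left the shares of TAPBP with CANX and of HLA-E with TAPBP within their intervals. It moved the share of PSMB8 from 0% to 83.3%, 60% and 88.9% of PSMB8 and PSMB5, and from 0% to 41.7%, 37.5% and 47.1% of PSMB8 and PSMB9, where 1 to 4 counts under the accessions fix no share, and that of TAP1 from 100% to 92.9% of TAP1 and TAP2 at 0 h. Shares with CALR, PDIA3 or PSMB6 were not run. No paired analysis was possible because each time point has 1 library. At this depth only TAPBP and HLA-E among the members could show a change under 1.5-fold.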

Other observations

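MHC class II presentation is used by professional antigen-presenting cells for peptides taken up from outside. Of 6 listed class II genes, 4 have a row, and these were near or at 0 under their accessions. As with PSMB8, such values do not show that a gene is silent. CD74, the invariant chain, had 0, 3 and 2 counts in order of time. HLA-DRA, HLA-DMB and the transactivator CIITA were listed at 0 in every library, as were the class I genes HLA-F and TAPBPL.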
